A study of Mus musculus with 6 samples.

Results

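The genes that hold an axon and its myelinating glial cell together at and beside the node of Ranvier were followed through the cell types of the mouse forebrain. They are Nfasc, Cntn1, Cntn2, Cntnap1, Cntnap2, Epb41l3, Ank2, Ank3 and Nrcam, 9 of the 32285 genes measured. They were chosen by name, and each symbol matched exactly 1 gene of the table. Single-nucleus RNA-seq had been done on flash-frozen forebrain taken at postnatal day 16 (P16) from 3 WT and 3 untreated Npc1-/- mice, with 1 droplet library per mouse. The Npc1-/- mice lack the lysosomal cholesterol exporter NPC1 in every cell of the body, so a cell type cannot be separated from the tissue around it. The mutants were littermates of the WT mice and F1 hybrids of the BALB/cJ and C57BL6/J strains. All 6 libraries were joined in 1 table of transcript counts in which a suffix from 1 to 6 marks the library of each nucleus. No key from suffix to mouse was found in the labels, the files or the methods, so no value compares the genotypes, and every class may hold nuclei of both.

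A myelinated axon is bare only at the node of Ranvier, where sodium channels are anchored to ankyrin-G (Ank3) together with the adhesion proteins neurofascin (Nfasc) and NrCAM (Nrcam). On either side the paranode forms a tight seal, in which a glial form of neurofascin binds the axonal pair contactin-1 (Cntn1) and Caspr (Cntnap1). Further out, in the juxtaparanode, contactin-2 (Cntn2) on both membranes and Caspr2 (Cntnap2) on the axon gather potassium channels, and the scaffolds protein 4.1B (Epb41l3) and ankyrin-B (Ank2) tie these complexes to the cytoskeleton. Several of these proteins are thus made by neurons and by oligodendrocytes, partly as different splice forms of 1 gene, and counts taken near the 3' end of a transcript give the gene as a whole and not the form.

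Nfasc and Cntn2, the pair with the largest ratios of mature oligodendrocyte-like over progenitor-like nuclei among the 9, are neighbours in the genome. In the GRCm38 annotation Cntn2 lies at chr1:132509427-132543256 and Nfasc at chr1:132564690-132741797, both on the minus strand and 21.4 kb apart. Nrcam (chr12:44328885-44601964, plus strand) is the member with the lowest ratio of mature over immature oligodendrocyte-like nuclei. The 250 bases before a transcript start of these 3 genes are shown for the pair with the largest ratios and the member with the lowest. They come from the RefSeq promoter table (GRCm38.p6), 5' to 3' on the gene's strand, and capitals mark letters of the kind bound by SOX-family factors (ACAAAG or ACAAT, either strand, with no overlap between matches here).
Nfasc, first start (chr1:132707327-132707576, minus strand): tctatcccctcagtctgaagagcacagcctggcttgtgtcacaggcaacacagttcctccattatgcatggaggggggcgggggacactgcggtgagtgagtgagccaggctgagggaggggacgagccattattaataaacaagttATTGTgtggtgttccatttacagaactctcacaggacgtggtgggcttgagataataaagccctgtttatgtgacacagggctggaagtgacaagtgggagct
Nfasc, second start (chr1:132642859-132643108, minus strand): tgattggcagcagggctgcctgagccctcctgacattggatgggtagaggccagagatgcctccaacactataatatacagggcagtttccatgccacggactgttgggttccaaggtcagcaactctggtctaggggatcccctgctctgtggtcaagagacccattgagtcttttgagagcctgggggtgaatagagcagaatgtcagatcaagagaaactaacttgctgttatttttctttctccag
Cntn2 (chr1:132542941-132543190, minus strand): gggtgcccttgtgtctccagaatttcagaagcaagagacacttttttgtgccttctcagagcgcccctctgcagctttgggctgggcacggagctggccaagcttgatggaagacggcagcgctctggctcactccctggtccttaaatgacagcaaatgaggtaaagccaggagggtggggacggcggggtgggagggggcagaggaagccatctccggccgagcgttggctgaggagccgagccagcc
Nrcam (chr12:44328635-44328884, plus strand): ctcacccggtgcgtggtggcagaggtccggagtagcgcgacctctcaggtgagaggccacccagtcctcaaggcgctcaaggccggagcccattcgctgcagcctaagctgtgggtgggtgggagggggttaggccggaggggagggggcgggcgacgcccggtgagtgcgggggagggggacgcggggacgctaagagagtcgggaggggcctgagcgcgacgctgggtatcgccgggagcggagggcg
The first Nfasc window held 1 match and the other 3 windows held none, where 38.8% of 32851 promoters of that length held at least 1. The Nrcam window was the richest in G and C, at 72.4%, beside 61.2% for Cntn2, 52.0% and 50.4% for the Nfasc starts and a median of 52.4% over all promoters. A match describes the letters only. Both Nfasc windows lie inside the annotated gene, downstream of its outermost start on the minus strand, so neither covers the bases before that start. The table held entries for 7 of the 9 genes, 16 starts in all. Of the starts not shown, a match was held by starts 2 and 3 of Cntn1, 2 of Cntnap2, 1 and 3 of Epb41l3, and 1 and 4 of Ank2. The windows shown therefore do not stand for all members.

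The other members lie apart. In GRCm38, Cntn1 is at chr15:92051165-92341967, Cntnap1 at chr11:101170523-101190724, Cntnap2 at chr6:45059357-47304213, Epb41l3 at chr17:69075683-69289989 and Ank3 at chr10:69398773-70027438, all on the plus strand, and Ank2 is at chr3:126921612-127499350 on the minus strand. Cntnap2 spans 2245 kb and Cntnap1 20.2 kb. In nuclei much of the RNA is unspliced, and the levels of different genes were therefore not set against each other. Annotated genes overlap all members except Cntn1 and Cntn2, and reads shared with them are a limit. Cntnap2 is overlapped by 28 genes and Ank2 by 17, most of them on the same strand, and Nrcam by 2 on the same strand. On the other strand lie Plekhh3 and Ccr10 for Cntnap1, Gm10538 for Nfasc, 2410021H03Rik for Epb41l3 and 2 pseudogenes for Ank3.

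The table held 497750379 unique molecular identifiers (UMIs, 1 per captured transcript) in 75878 barcodes, with 8217 to 16118 barcodes and 51343653 to 107583300 UMIs per library. After 11 barcodes with a mitochondrial share of 10% or more were left out, 75867 nuclei remained. Clustering was done without the 9 genes, so that their own levels did not shape the classes, and 27 of 37 clusters were named in 14 classes. Of the stages of the oligodendrocyte lineage, 3410 nuclei were OPC-like (oligodendrocyte progenitors), 1871 immature oligodendrocyte-like and 2459 mature oligodendrocyte-like. Of their fixed markers, 9 of 10, 10 of 12 and 12 of 12 were highest in the class of that name. The mature class was uneven over the libraries, at 735, 828, 157, 163, 477 and 99 nuclei in libraries 1 to 6. The neuronal classes were excitatory (18875 nuclei), inhibitory (3371), striatal projection neuron-like (5614) and neuroblast-like (1764), and 6 of 10 excitatory and 6 of 11 inhibitory markers were highest in their own class. The other 10 clusters (26.5% of nuclei, 24.1 to 29.2% per library) stayed unnamed, among them 4 of high doublet score. Another of them held 5310 nuclei of good depth (median 7303 UMIs, median doublet score 0.035), with Baiap3 as leading gene. Its best marker scores were for inhibitory and excitatory neurons, and its nuclei are missing from all class comparisons. A shared barcode sequence was carried by 1264 nuclei (1.67%). Npc1 itself ranged from 25.5 to 32.2 CPM over whole libraries, and this checks no label because its libraries could not be assigned.

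Levels are given as CPM, the UMIs of a gene per 1000000 UMIs of a class. They are pooled over libraries, or given for single libraries as lowest, median and highest. A gene was called higher or lower in one class than in another when its log2 ratio had that sign within 6 of 6 libraries, and the pooled log2 ratio carries an exact 95% interval that covers counting error only. The libraries are of both genotypes and are not replicates of a group, so no p-value was calculated. Each count of members is set beside the share of all genes called in the same way (genes of at least 5 CPM in either class). These genes were not matched to the members in level, and a small ratio is called more easily in a gene of many UMIs. Ank3 was called at log2 0.10 in immature over OPC-like nuclei, and Cntnap1 was not at -0.36 in mature over OPC-like nuclei. The part of level in the counts was not tested. Droplets also take up free RNA from broken cells, and the 2617 microglia-like nuclei served as the background. Their cell type is neither neuronal nor myelinating, and its share of free RNA need not equal that of other classes. The sum of 15 neuronal reference genes such as Snap25 and Syt1 was 20600.1 CPM in excitatory nuclei and still 7701 CPM in microglia-like, 7617 in OPC-like, 8204 in immature and 7170 CPM in mature oligodendrocyte-like nuclei, and none of the 15 was at 0 in any of these classes.

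**Figure D1:**
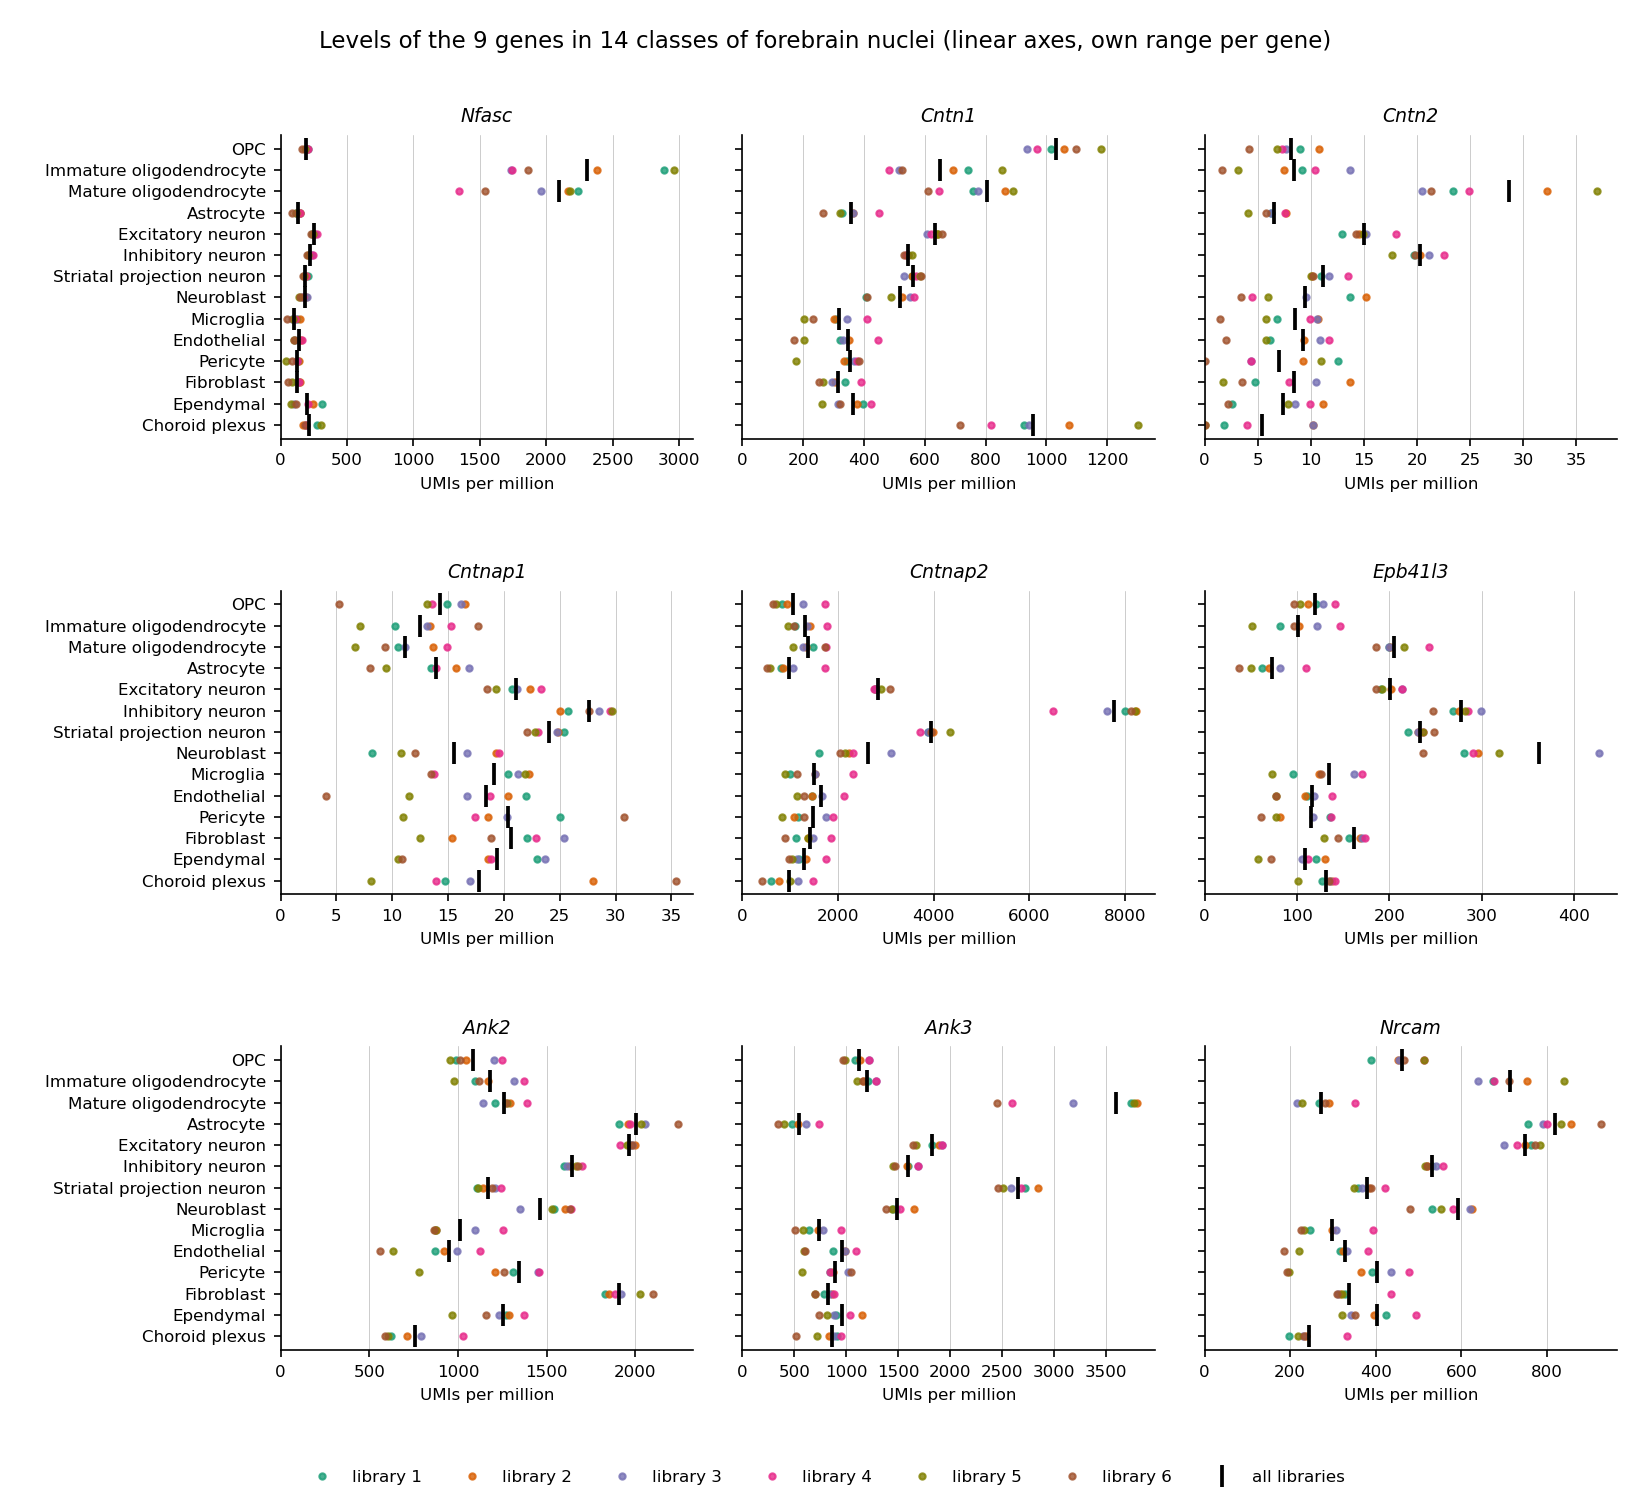
Each panel plots 1 gene, with 14 classes on the vertical axis and its level in CPM on a linear horizontal axis. Dots are the 6 libraries and black bars the pooled value. Nfasc stands far to the right in immature and mature oligodendrocyte-like nuclei (2309.6 and 2093 CPM) and Cntnap2 in inhibitory neuron-like nuclei (7773 CPM). Ank3 has its highest pooled level in mature oligodendrocyte-like nuclei (3594 CPM), above striatal nuclei in 4 of 6 libraries.

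Across the 14 classes, 3 members had their highest level in immature or mature oligodendrocyte-like nuclei (Nfasc, Cntn2 and Ank3) and 1 in OPC-like nuclei (Cntn1). Cntnap1 and Cntnap2 were highest in inhibitory neuron-like and Epb41l3 in neuroblast-like nuclei, and Ank2 and Nrcam were highest in astrocyte-like nuclei. The share of all genes highest in each class was not calculated, so these counts do not set the members apart from other genes. First and second place were separated in 6 of 6 libraries for Cntnap1 and Cntnap2 only. For Nfasc the immature stage exceeded the mature in 5 libraries, for Cntn2 mature oligodendrocyte-like exceeded inhibitory nuclei in 5, and for Ank3 mature oligodendrocyte-like exceeded striatal nuclei in 4 libraries. Under TMM scaling, a normalization that corrects for differences in composition, 5 members in place of 3 were highest in a neuronal class. The order at the top therefore depends on the scale for some members, while the differences between stages are given with their own alternatives.

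Nfasc was the member with the widest range in the oligodendrocyte lineage. Its level in OPC-like nuclei was 205, 196, 195, 207, 188 and 161 CPM in libraries 1 to 6. In immature oligodendrocyte-like nuclei it was 2886, 2378, 1737, 1741, 2958 and 1859 CPM, and in mature ones 2236, 2162, 1960.3, 1345, 2178 and 1539.6 CPM. Every library of both later stages was far above every library of the OPC-like stage, and the later stages overlapped each other. The pooled rise from OPC-like to immature nuclei was 11.8-fold (log2 3.56, interval 3.50 to 3.63), larger than the ratio of 99.7% of all genes in that comparison. From immature to mature nuclei there was no call: the log2 ratio was -0.14 (interval -0.17 to -0.12), with 1 library above 0, 5 below and a library median of -0.32. In nuclei of doublet score under 0.05 the pooled levels were 2964 CPM in mature and 2889.6 CPM in immature nuclei. That log2 ratio of 0.04 was not called either, and libraries 1 and 2 supplied 417 and 496 of those 1499 mature nuclei. In microglia-like nuclei Nfasc was at 49.4 CPM in the lowest, 102 CPM in the median and 147 CPM in the highest library, below all oligodendrocyte-like values including those of the OPC-like nuclei, which exceeded it by log2 0.89 (0.42 to 1.71 over libraries). This last call was lost at a coarser clustering (resolution 0.5), where the log2 ratio was 0.026. The level in excitatory nuclei was 250.4 CPM, so that immature and mature oligodendrocyte-like nuclei carried 923% and 836% of the neuronal level, where the 15 reference genes had medians of 38.7% and 34.6%.

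Contactin-1, the axonal partner of neurofascin and also a surface protein of oligodendrocyte progenitors, ran the other way. Cntn1 was at 1017, 1057, 938, 969, 1181 and 1098 CPM in OPC-like nuclei of libraries 1 to 6, and at 744, 693, 515, 481, 853 and 525 CPM in immature oligodendrocyte-like nuclei. The groups did not overlap: the lowest OPC-like library stood above the highest immature one. The pooled log2 ratio was -0.67 (interval -0.71 to -0.62). In mature nuclei the level was 609.7 CPM in the lowest, 767 CPM in the median and 889.7 CPM in the highest library, again below the OPC-like value in 6 of 6 libraries (log2 -0.36). At a finer clustering the larger mature cluster held 1029 CPM, close to the pooled OPC-like level of 1031 CPM, and the smaller 352 CPM. In the pooled values Cntn1 in OPC-like nuclei was 163% of its excitatory level and the single member above all 15 reference genes there. It was also 958 CPM in the 389 choroid plexus-like nuclei (714 to 1301 CPM over libraries), against 318 CPM in microglia-like nuclei. Of the choroid plexus-like nuclei, 40.1% had a doublet score under 0.05, fewer than in the classes of the oligodendrocyte lineage. In those low-score choroid plexus-like nuclei Cntn1 was at 1073 CPM (984 to 1172 CPM in the 3 libraries with at least 20 such nuclei). OPC-like and choroid plexus-like nuclei were not separated, with either higher in 3 of 6 libraries.

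Caspr (Cntnap1), which joins Cntn1 on the axon, was counted rarely and was highest in inhibitory, then striatal neuron-like nuclei. It was at 25.1 CPM in the lowest, 28.1 CPM in the median and 29.7 CPM in the highest library in inhibitory nuclei and at 6.64 CPM in the lowest, 10.8 CPM in the median and 14.9 CPM in the highest library in mature oligodendrocyte-like nuclei, and these ranges did not overlap. None of the 3 steps between oligodendrocyte stages was called for Cntnap1, and the intervals of its log2 ratios were -0.55 to 0.15 from OPC-like to immature, -0.66 to -0.05 from OPC-like to mature and -0.49 to 0.19 from immature to mature nuclei. With 168, 117 and 197 UMIs in the 3 stages, smaller changes were not detectable at this depth. The second interval lay below 0, but not all 6 libraries had that sign. In nuclei of doublet score under 0.05 the mature level of Cntnap1 was called lower than the OPC-like level (6 of 6 libraries, log2 -0.87). Microglia-like nuclei held 19.1 CPM, more than any oligodendrocyte stage in the pooled values. Excitatory nuclei were little above that, at 21.1 CPM, and exceeded fibroblast-like nuclei in only 3 of 6 libraries.

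Contactin-2 was higher at the mature stage. Cntn2 stood at 8.95, 10.8, 7.68, 7.32, 6.85 and 4.19 CPM in OPC-like nuclei of libraries 1 to 6 and at 9.17, 7.47, 13.7, 10.4, 3.18 and 1.61 CPM in immature ones, next to 1.5 CPM in the lowest, 8.37 CPM in the median and 10.7 CPM in the highest library in microglia-like nuclei. In mature oligodendrocyte-like nuclei it was at 23.4, 32.2, 20.5, 24.9, 37.0 and 21.3 CPM. All 6 mature values lay above all values of the earlier stages, which overlapped each other and the microglia-like range. The pooled log2 ratio was 1.81 over OPC-like (interval 1.49 to 2.14) and 1.77 over immature nuclei (interval 1.43 to 2.13), on 96, 79 and 506 UMIs. Nfasc was thus already high in immature nuclei, whereas its neighbour Cntn2 was not called higher there than in OPC-like nuclei (log2 0.04, interval -0.41 to 0.48). Whether the steps of these genes differ was not tested.

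Caspr2 (Cntnap2), the axonal partner of contactin-2, showed no such step. In mature oligodendrocyte-like nuclei it was at 1048 CPM in the lowest, 1409.6 CPM in the median and 1748 CPM in the highest library, within the microglia-like range of 887 to 2322 CPM. The pooled level in mature nuclei was 48.4% of the excitatory level, between the median (34.6%) and the highest (92.2%) of the reference genes. A call of higher in immature than OPC-like nuclei (log2 0.30, interval 0.27 to 0.34) turned to -0.32 when only nuclei of doublet score under 0.05 were kept. In those nuclei Cntnap2 was 973 CPM in OPC-like, 780.5 in immature, 478 in mature and 1330.3 CPM in microglia-like nuclei. The mature stage was then lower than each of the other 3 classes in 6 of 6 libraries. The sum of the 15 neuronal reference genes in the same nuclei also fell over the oligodendrocyte stages: OPC-like nuclei held 7226 CPM, immature nuclei 4829 CPM and mature nuclei 2804 CPM. In microglia-like nuclei the sum was 7207 CPM, near that of OPC-like nuclei, although Cntnap2 was higher in microglia-like nuclei. The part of the reference genes' RNA in the Cntnap2 values was not tested.

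Protein 4.1B (Epb41l3), a membrane scaffold, was higher in the mature stage. It was at 96.4 CPM in the lowest, 116 CPM in the median and 141 CPM in the highest library in OPC-like nuclei, at 51.7 CPM in the lowest, 99.3 CPM in the median and 147 CPM in the highest library in immature ones and at 185 CPM in the lowest, 200.0 CPM in the median and 242 CPM in the highest library in mature ones. Immature over OPC-like nuclei was not called for Epb41l3 (lower in 4 of 6 libraries), but in nuclei of doublet score under 0.05 it was lower in 6 of 6 (log2 -0.73). The mature values did not overlap with either earlier stage, with log2 ratios of 0.78 (interval 0.69 to 0.87) and 1.02 (interval 0.91 to 1.12). The microglia-like level was 134 CPM (72.8 to 169.8 CPM), between the earlier stages and the mature one.

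Ankyrin-G (Ank3), the anchor of sodium channels in axons, was highest in the mature stage. It was at 1082, 1133, 1218, 1220.2, 983 and 971 CPM in OPC-like nuclei of libraries 1 to 6 and at 1208, 1158, 1286, 1281, 1099 and 1159 CPM in immature ones. In mature oligodendrocyte-like nuclei it was at 3733, 3796, 3182, 2592, 3762 and 2451 CPM. Mature nuclei of every library were above all values of the earlier stages, and libraries 4 and 6 were the lowest. The pooled log2 ratio was 1.68 over OPC-like nuclei (interval 1.65 to 1.71) and 1.58 over immature nuclei (interval 1.55 to 1.61). Mature nuclei held 197% of the excitatory level and microglia-like nuclei 40.3%. The small excess of immature over OPC-like nuclei (log2 0.10, higher in 6 of 6 libraries) reversed to -0.16 in nuclei of low doublet score. Its paralog ankyrin-B (Ank2) was nearly level over the stages at 1088, 1183 and 1262 CPM. Its log2 ratio of 0.12 from OPC-like to immature nuclei was called but reversed to -0.10 in the nuclei of low doublet score, and the ratios of mature nuclei over OPC-like and immature ones were not called. Their counting intervals were 0.18 to 0.25 and 0.06 to 0.13, but not all 6 libraries had that sign.

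NrCAM, an adhesion protein of the node, peaked in between. Nrcam was at 388, 453, 455, 514, 514 and 466 CPM in OPC-like nuclei of libraries 1 to 6. It was at 674, 754, 638, 675, 839 and 710.2 CPM in immature nuclei and at 267, 290.4, 217, 353, 228 and 282 CPM in mature ones. No library overlapped between the immature stage and either of the others. The log2 ratio was 0.63 from OPC-like to immature nuclei (interval 0.58 to 0.68) and -1.39 from immature to mature nuclei (interval -1.45 to -1.34). The mature level overlapped the microglia-like range of 225 to 393 CPM, and 2.71% of all genes had a smaller ratio between mature and immature nuclei. In nuclei of doublet score under 0.05 that log2 ratio was -2.67, and the mature level was called lower than the microglia-like one. The neuronal reference genes were lower there too.

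**Figure D2:**
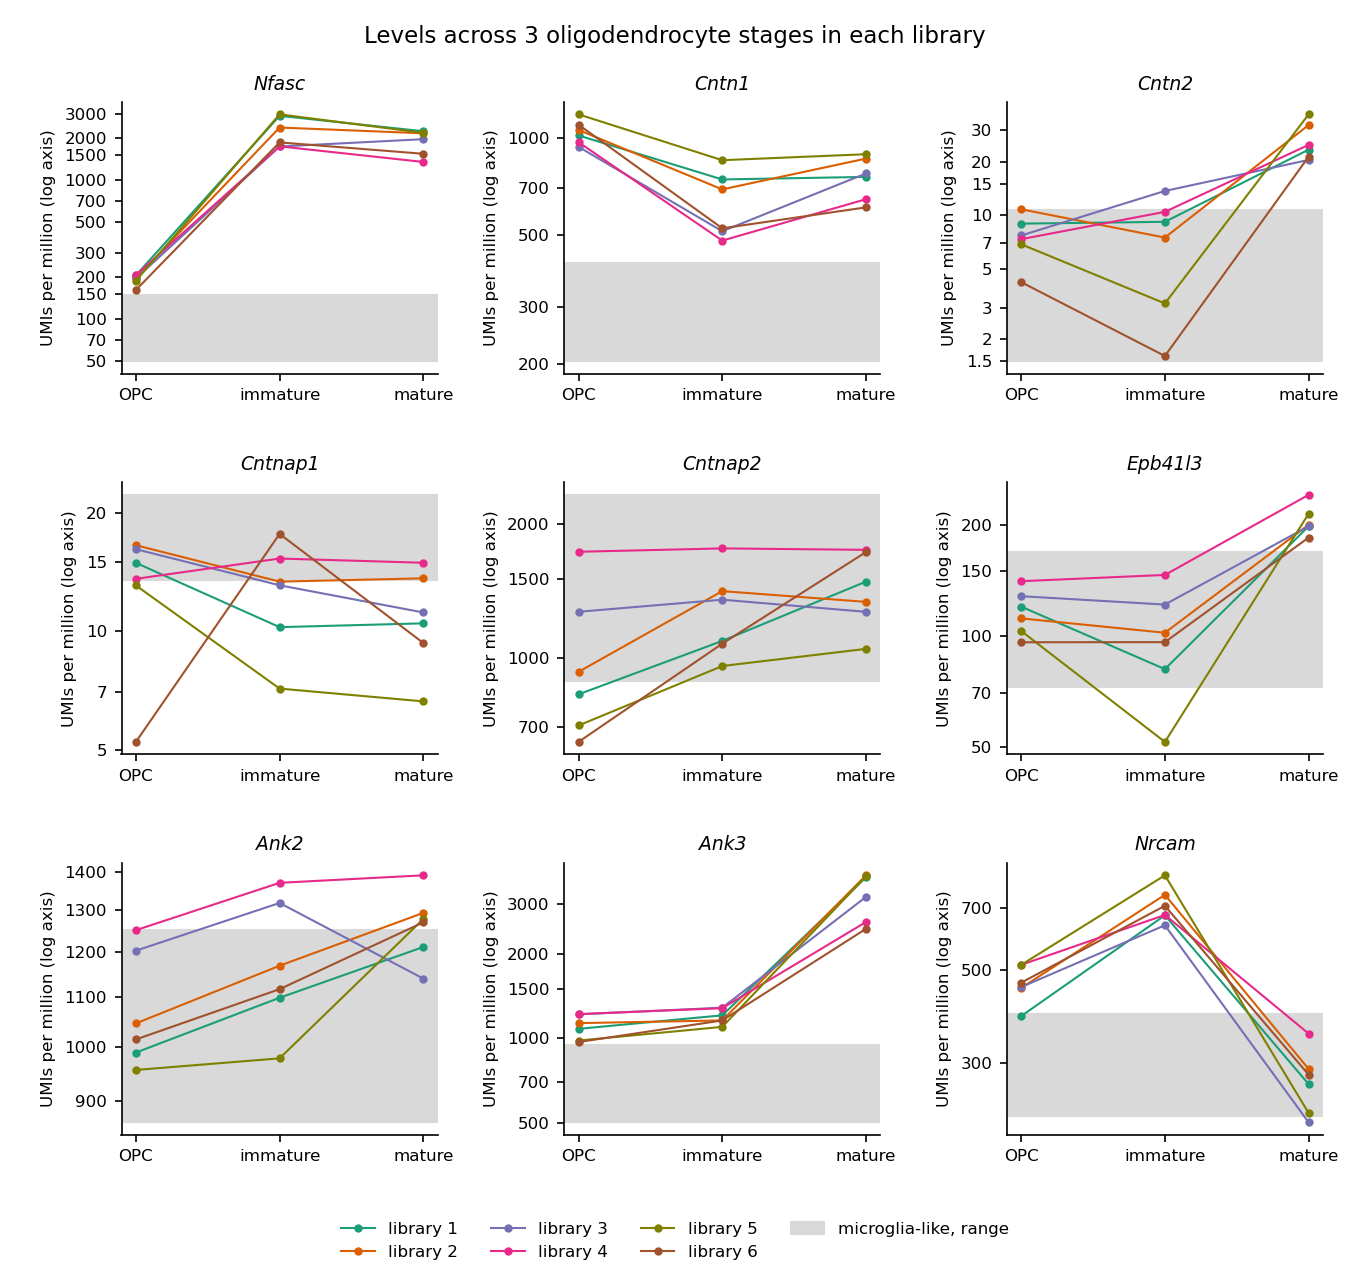
Each panel plots 1 gene over the 3 oligodendrocyte stages, with its level in CPM on a logarithmic axis, a line for each of the 6 libraries and the microglia-like range in grey. Nfasc steps up at the immature stage in every library, Cntn2, Epb41l3 and Ank3 at the mature stage, Nrcam peaks at the immature stage, and Cntn1 is highest in OPC-like nuclei.

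By count, 5 members were called higher and 1 lower at the immature stage than at the OPC-like stage, where 14.1% of 12593 genes were called higher and 18.1% lower. Nfasc, Nrcam and Cntn1 kept these calls in all 15 alternatives, and Cntnap2, Ank2 and Ank3 did not. The alternatives that leave out 1 library could not remove a call, because a call has the same sign in every library. In mature over OPC-like nuclei 4 members were higher and 2 lower (Nfasc, Cntn2, Ank3 and Epb41l3 against Cntn1 and Nrcam), beside 17.3% and 29.6% of all genes. In mature over immature nuclei Cntn2, Ank3, Epb41l3 and Cntn1 were higher and Nrcam lower (4 and 1), beside 12.9% and 20.7%. The call of Cntn1 (log2 0.31) was lost at resolution 2.0 and in nuclei of doublet score under 0.05, and the other 4 held in all 15 alternatives. The median log2 ratio of the members was 0.10, 0.37 and 0.09 in these comparisons, and that of all genes was -0.06, -0.18 and -0.14. Against microglia-like nuclei, 4 members were higher and 2 lower in OPC-like nuclei (all genes 15.8% and 36.2%), and only Cntn1 kept its call in all 15 alternatives. Nfasc, Nrcam and Ank3 lost theirs at a coarser clustering (resolution 0.5), and Cntnap1 and Cntnap2 with TMM scaling. At resolution 0.5 the microglia-like class itself changed, to 4516 nuclei in place of 2617. The mean standardized level of macrophage markers in it was 3.69 in place of 0.61. In immature nuclei 5 were higher and 1 lower (14.5% and 35.4%), of which Nfasc, Cntn1 and Nrcam kept their calls and Ank2, Ank3 and Epb41l3 did not. In mature nuclei 6 were higher and none lower (13.8% and 40.9%). Of the 6 higher in mature nuclei, Ank2 had the smallest log2 ratio, 0.32, and did not keep its call in all 15 alternatives. The comparisons with OPC-like and with microglia-like nuclei share their reference nuclei. TMM scaling moved the median log2 ratio of all genes by 0.25, 0.30 and 0.42 in the OPC-like, immature and mature comparisons with microglia-like nuclei, so small ratios such as that of Ank2 are relative to the scale.

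The members were also measured in nuclei of low doublet score alone. A doublet score estimates how much a droplet resembles a mix of 2 nuclei, and a score under 0.05, a limit set after the data were seen, was met by 87.9% of OPC-like, 77.2% of immature, 61.0% of mature and 90.1% of microglia-like nuclei. The summed reference genes were at 2804 CPM in the mature nuclei kept and at 7207 CPM in the microglia-like ones. Within them Nrcam was 116 CPM (59.5 to 215 CPM over libraries), Cntnap1 7.42 CPM and Cntnap2 478 CPM, each lower in 6 of 6 libraries than in microglia-like nuclei (274, 18.7 and 1330.3 CPM). The reference genes were lower there too, and their part in these 3 differences was not tested. Ank3 was 4580.0 CPM and Nfasc 2964 CPM, both higher than over the whole class in 6 of 6 libraries, and Cntn2 was 35.5 CPM, higher in 5 of 6. Cntn1 was 925 CPM, higher than over the whole class in libraries 1, 2 and 5 and lower in libraries 3, 4 and 6. Without the nuclei of higher score, mature over immature nuclei came to log2 2.35 for Cntn2, 2.21 for Ank3, 1.49 for Epb41l3 and -2.67 for Nrcam, each farther from 0 than over all nuclei.

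The mature class itself was uneven. At a finer clustering it split into a cluster of 1368 nuclei (median 6754 UMIs, median doublet score 0.0930) and one of 1089 nuclei (4889 UMIs, 0.0159). Cntn2 was at 19.8 CPM in the first (16.5 to 23.2 CPM over libraries) and 47.0 CPM in the second (24.4 to 62.0 CPM), and Ank3 at 3209 and 4383 CPM. Cntn1 went the other way, at 1029 CPM (752 to 1293 CPM) and 352 CPM (196 to 412 CPM), as did Cntnap2 at 1797 and 494 CPM, Cntnap1 at 13.6 and 6.02 CPM and Nrcam at 353 and 106 CPM. Nfasc (2195 and 1896 CPM), Epb41l3 (194 and 228 CPM) and Ank2 (1265 and 1253 CPM) differed less. Cntn1 was thus lower in the cluster of lower doublet score. The 2 clusters also differed in their markers. The mean standardized level of mature markers was 3.02 in the first and 5.65 in the second, and that of immature markers 1.92 and 0.58. In the second cluster Cntn1 lay below the immature value in every library, so its call of higher in mature than immature nuclei was not carried by that cluster. Over all mature nuclei of score under 0.05 the pooled level of Cntn1 was not lower than over the whole class (925 and 805 CPM). The libraries were divided, with 3 higher and 3 lower. The part of doublets, or of stage, in this split was not tested.

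**Figure D3:**
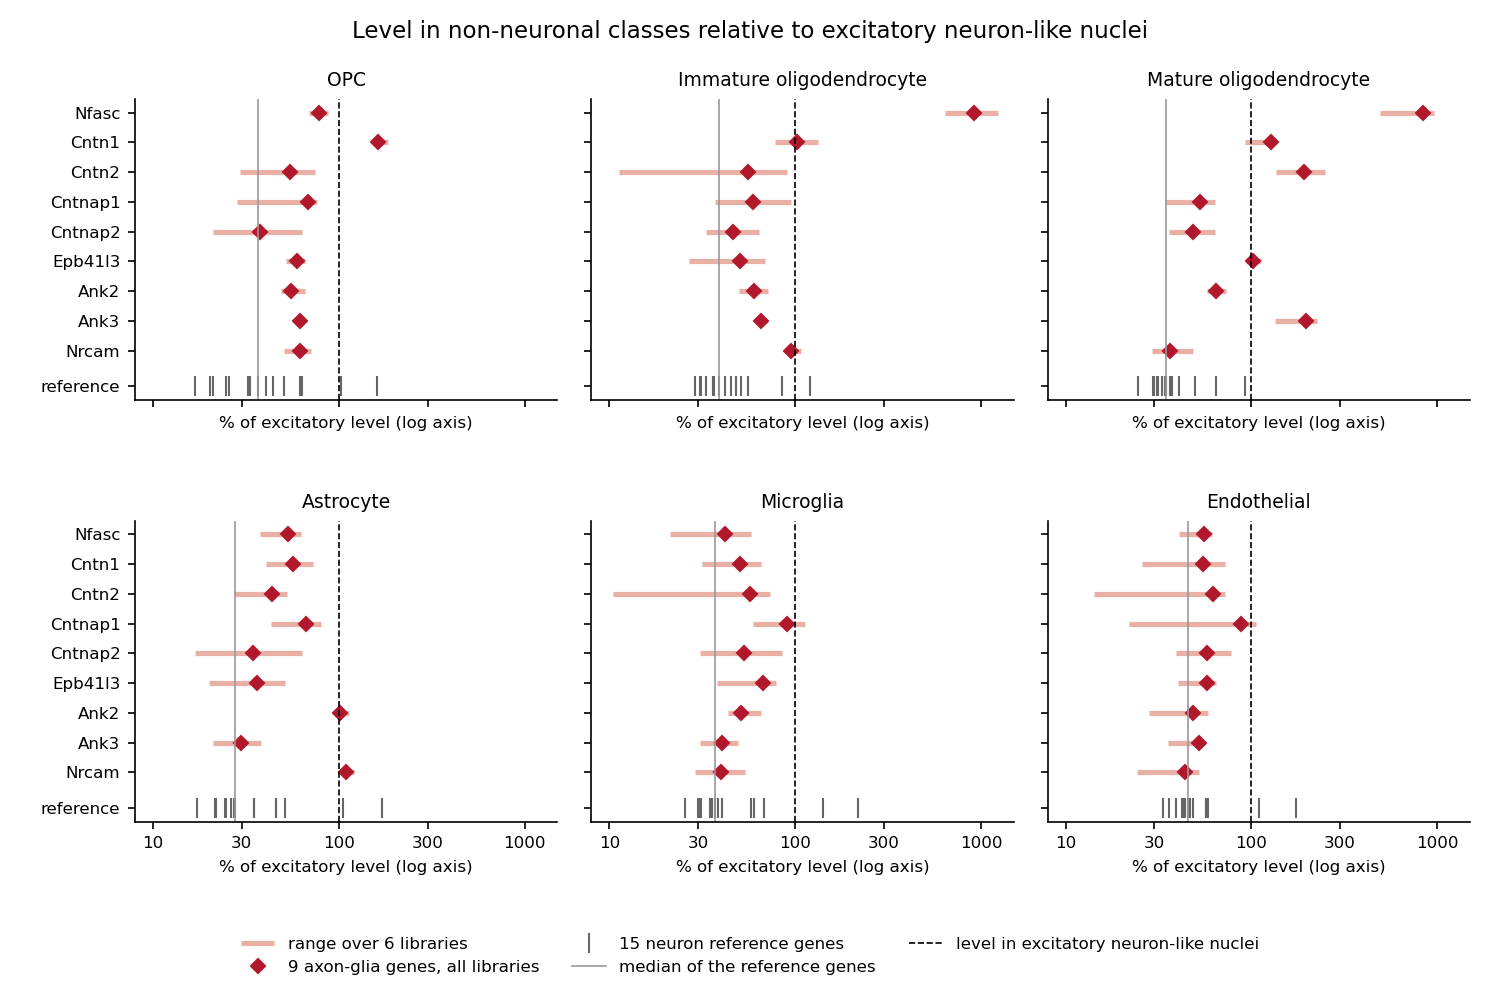
Diamonds give the pooled level of each gene in 6 non-neuronal classes as a percent of its level in excitatory neuron-like nuclei on a logarithmic axis, with pale bars for the range over 6 libraries and ticks for 15 neuronal reference genes. In mature oligodendrocyte-like nuclei Nfasc (836%), Ank3 (197%), Cntn2 (192%), Cntn1 (127%) and Epb41l3 (102%) lie to the right of all reference genes (highest 92.2%). In microglia-like nuclei no gene of the list does (highest reference gene 218.3%).

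Relative to excitatory nuclei, the pooled values of 5 members exceeded all 15 reference genes in mature oligodendrocyte-like nuclei, where the highest reference gene was Nrgn at 92.2%. Over libraries Nrgn ran there from 62.9 to 108.4%, and Cntn1 (92.8 to 138.0%) and Epb41l3 (93.4 to 113.2%) overlapped it. The ranges of Nfasc, Ank3 and Cntn2 lay above it. In OPC-like nuclei Cntn1 (154.3 to 183.2%) also overlapped Nrgn (97.2 to 174.2%). In immature nuclei 1 did (Nfasc) and in OPC-like nuclei 1 (Cntn1). In choroid plexus-like nuclei it was again Cntn1 alone, at 151%. In astrocyte-, endothelial-, pericyte-, fibroblast-, ependymal- and microglia-like nuclei none did. Nrgn was the highest reference gene in these classes too, at 120.7% in immature, 159.7% in OPC-like, 170.9% in astrocyte-like and 218.3% in microglia-like nuclei. The counts therefore rest on unlike limits. Members such as Cntn1 (102.3%) and Nrcam (95.5%) in immature nuclei lay above the mature limit of 92.2% without being counted. The share of all genes above these limits was not calculated. Astrocyte-like nuclei carried Ank2 and Nrcam at 102% and 109% of the excitatory level, while their median reference gene was at 27.7% and their Ank3 at 29.7%. In astrocyte-like nuclei Ank2 was at 1909 CPM in the lowest, 2002 CPM in the median and 2241 CPM in the highest library and Ank3 at 345 CPM in the lowest, 505 CPM in the median and 737 CPM in the highest library.

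The share of nuclei with at least 1 UMI, after each nucleus was thinned to 2000 UMIs, was higher for Nfasc in both later stages than in OPC-like nuclei, and for Cntn2 in mature nuclei. Nfasc was found in 31.8% of OPC-like (interval 30.1 to 33.5), 76.9% of immature (74.8 to 78.8) and 82.2% of mature nuclei (80.6 to 83.7). Microglia-like and endothelial-like nuclei, which should lack it, had 19.5% and 18.8%. Unthinned, the shares were 45.7, 85.8, 93.7, 21.0 and 32.1%, at median depths of 3170, 3946, 5610, 2277 and 3302 UMIs. Cntn2 was found in 6.83% of mature nuclei after thinning, against 1.6% of immature and 1.88% of microglia-like nuclei (unthinned 16.2, 3.96 and 2.1%). The immature share of Cntn2 was at the level of background. Cntnap2 showed the limit of such shares: it was found in 90.1% of microglia-like and 63.8% of mature oligodendrocyte-like nuclei. For thinning, 436 OPC-like, 116 immature, 130 mature, 966 microglia-like and 380 endothelial-like nuclei were too shallow and were left out.

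Among neurons, the members split by cell class. Inhibitory neuron-like nuclei had more Cntnap2 than excitatory ones, at 6496 CPM in the lowest, 8071 CPM in the median and 8242 CPM in the highest library against 2748 CPM in the lowest, 2781 CPM in the median and 3079.5 CPM in the highest library. The ranges were far apart, and the log2 ratio was 1.46 (interval 1.45 to 1.47), larger than that of 97.0% of genes. Epb41l3 (log2 0.47), Cntn2 (0.43) and Cntnap1 (0.39) were also higher in inhibitory nuclei. Nrcam (-0.49), Ank2 (-0.26), Cntn1 (-0.22), Ank3 (-0.20) and Nfasc (-0.16) were lower. The 4 higher and 5 lower calls stood beside 34.8% and 20.8% of 11824 genes. All 9 held in all 15 alternatives, although the median log2 ratio of all genes moved by -0.14 under TMM scaling, about the size of the Nfasc difference.

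Striatal projection neuron-like nuclei differed from excitatory ones in both ankyrins and in Nrcam. Ank3 was at 2454 CPM in the lowest, 2633 CPM in the median and 2842 CPM in the highest library there and at 1643 CPM in the lowest, 1856 CPM in the median and 1924 CPM in the highest library in excitatory nuclei, and the groups did not overlap (log2 0.54, interval 0.53 to 0.55). Ank2 was at 1105 CPM in the lowest, 1167 CPM in the median and 1243 CPM in the highest library against 1915 CPM in the lowest, 1974 CPM in the median and 1999 CPM in the highest library, the opposite direction, and again without overlap (log2 -0.75, interval -0.77 to -0.74). Nrcam had the lowest ratio, at log2 -0.98 (interval -1.01 to -0.96). Cntnap2 (0.48) and Epb41l3 (0.22) were higher, and Cntn2 (-0.43), Nfasc (-0.42) and Cntn1 (-0.17) were lower. This gave 3 higher and 5 lower calls, beside 35.0% and 28.0% of all genes, and all 8 held in all alternatives. Cntnap1 was not called (log2 0.19, interval 0.09 to 0.29, higher in 5 of 6 libraries).

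**Figure D4:**
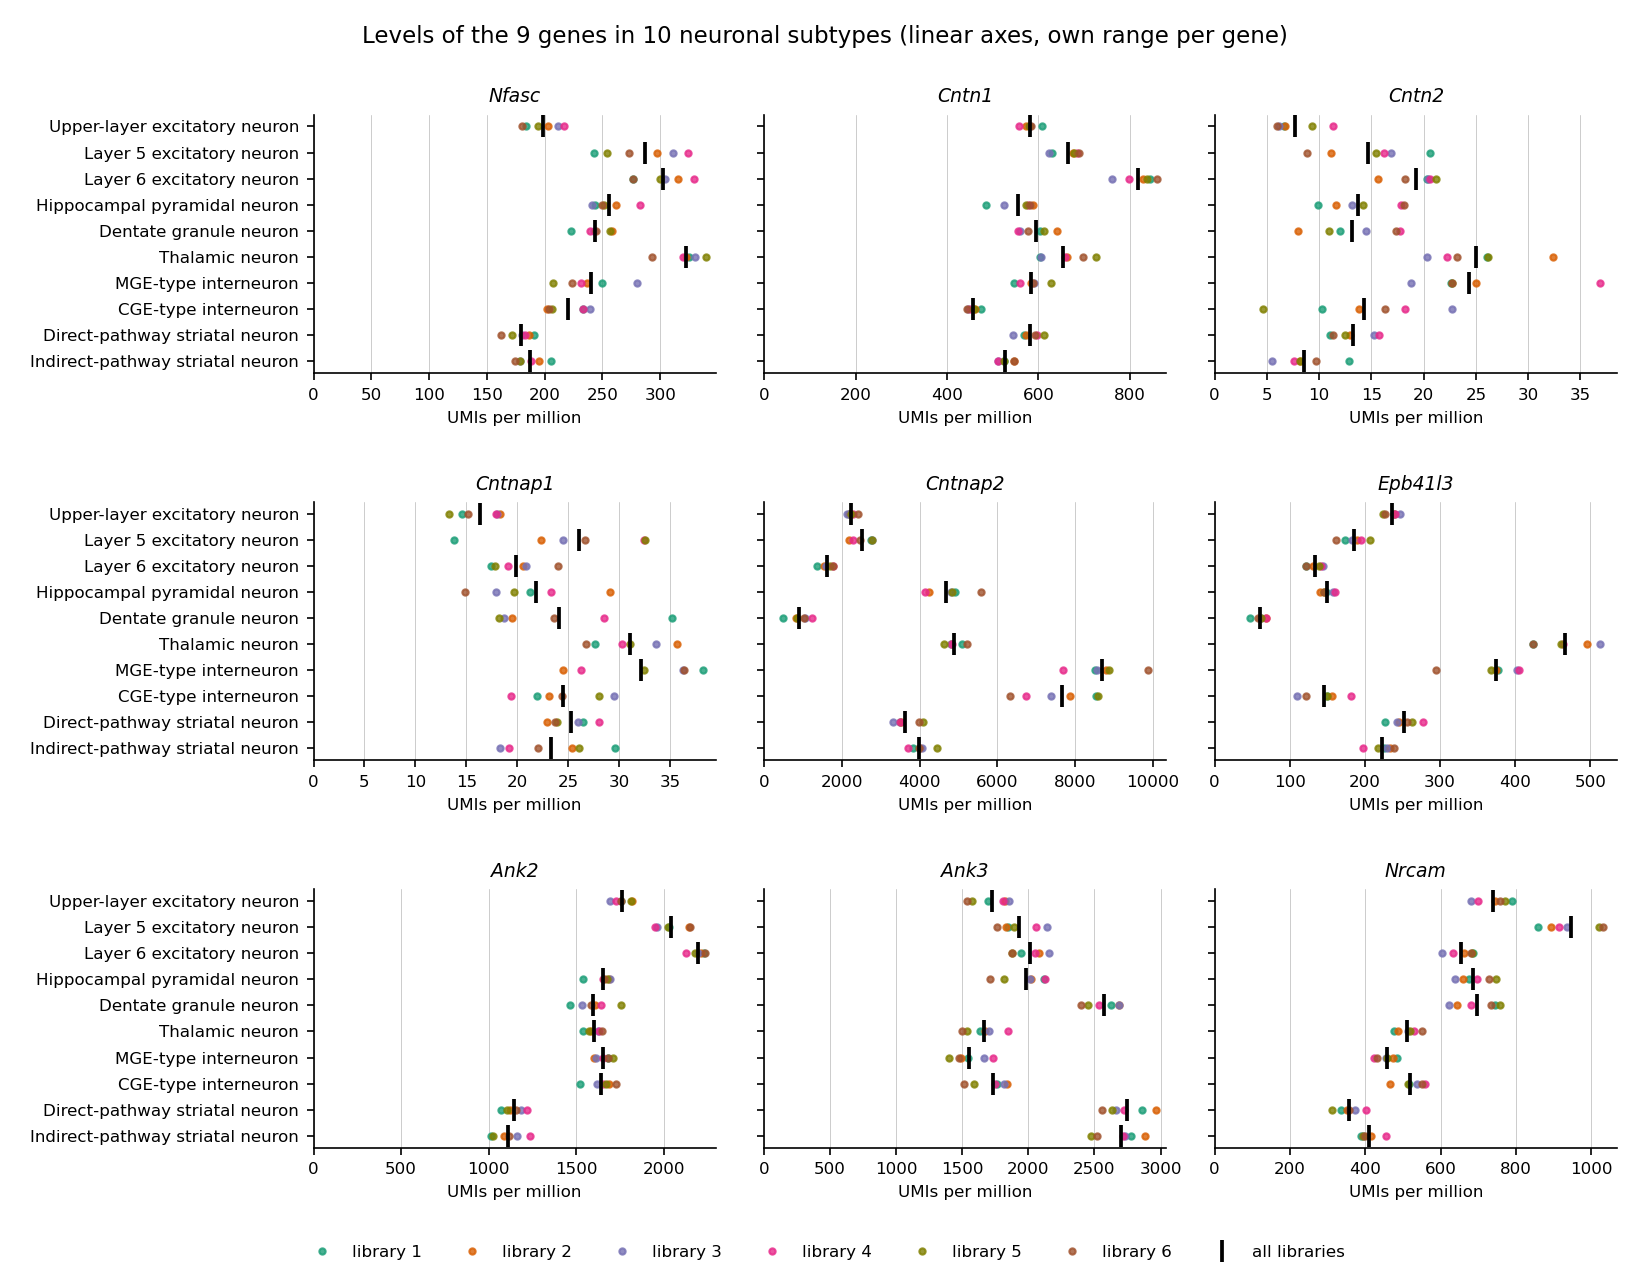
Each panel plots 1 gene over 10 neuronal subtypes, with its level in CPM on a linear axis, dots for the 6 libraries and black bars for the pooled value. Cntnap2 runs from 892 CPM in dentate granule to 8693 CPM in MGE-type nuclei, and Ank3 is highest in the 2 striatal subtypes and dentate granule nuclei.

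Subtypes differed most in Cntnap2 and Epb41l3. Cntnap2 was at 8693 CPM in interneurons of the medial ganglionic eminence type (MGE, 7681 to 9885 CPM over libraries) and at 7673 CPM in those of the caudal type (CGE, 6317 to 8594 CPM). It was at 892 CPM in dentate granule neurons (483 to 1233 CPM), and 7 of the 9 neighbours in the order of 10 subtypes were separated in 6 of 6 libraries. Among excitatory subtypes it was higher in thalamic and hippocampal pyramidal neurons (4889 and 4682 CPM, not separated) than in layer 6 neurons (1612 CPM). An excitatory cluster with no subtype name, with Pou4f1 among its leading genes, held 12721 CPM in 104 nuclei and is named here after its value was seen. That value is pooled only, and 104 nuclei cannot give the required 20 in each of 6 libraries.

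Epb41l3 was highest in thalamic neurons at 466 CPM (423 to 512 CPM), then in MGE-type interneurons at 374 CPM (294 to 405 CPM), and lowest in dentate granule neurons at 60.8 CPM (47.1 to 68.8 CPM). Each of these 3 places was separated from its neighbour in 6 of 6 libraries. Thalamic neurons were also first for Nfasc (322 CPM) and Cntn2 (25.0 CPM), and MGE-type interneurons for Cntnap1 (32.1 CPM), though none of these first places was separated from the second in every library. Layer 6 neurons had the most Cntn1 (818 CPM, 761 to 859 CPM) and Ank2 (2195 CPM, 2126 to 2236 CPM), both above the second place in 6 of 6 libraries. Nrcam was highest in the 427 nuclei named layer 5 neurons at 946 CPM (858 to 1033 CPM). It was lowest in direct-pathway striatal neurons at 356 CPM (311 to 401 CPM). At a finer clustering (resolution 2.0) clusters of 431 and 1254 nuclei were both named layer 5. The 427 nuclei therefore need not stand for the whole layer. Dentate granule neurons, low in Cntnap2 and Epb41l3, were high in Ank3 at 2572 CPM (2399 to 2689 CPM), after the direct- and indirect-pathway striatal neurons (2747 and 2697 CPM).

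The list of 49 related genes, 15 of them paralogs of the members and the rest genes of the axon-glia contact, moved in both directions. In mature over OPC-like nuclei 13 of 48 tested were higher and 20 lower in 6 of 6 libraries, beside 17.3% and 29.6% of all genes. In mature over immature nuclei 6 and 16 of 48 were, beside 12.9% and 20.7%, so the share higher was near that of all genes. Hapln2, a link protein of the nodal matrix, had the largest ratio of the list in the mature stage (54.0 against 1.02 CPM in OPC-like nuclei, log2 5.72), and Mag, an adhesion protein of the innermost myelin wrap, followed at 739.6 against 32.5 CPM (log2 4.51). The matrix genes Vcan (42.4 against 599 CPM, log2 -3.82) and Tnr (538 CPM in mature against 5979 CPM in immature nuclei, log2 -3.48) were lower. Hapln2 and Mag were among the markers that named the mature class and Vcan among those of the OPC-like class, so their ratios are descriptions of the classes. Epb41l2, a paralog of Epb41l3, was highest at the immature stage. OPC-like nuclei held 79.9 CPM of it, the immature stage 1242 CPM and the mature stage 127 CPM. It was also at 1223 CPM in microglia-like nuclei. Lgi3, a secreted partner of the juxtaparanodal complex, was at 12.9, 61.4 and 89.1 CPM over the 3 stages, and Chl1, an L1-family relative of Nfasc and Nrcam, at 296 CPM in OPC-like and 82.4 CPM in immature nuclei.

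In neurons, 11 of 15 paralogs of the members were higher and 2 lower in inhibitory than in excitatory nuclei, where 34.8% and 20.8% of all genes were. Led by Cntnap3 (146 against 22.5 CPM, log2 2.70), Ank1 (166 against 41.6 CPM, log2 1.99), Cntnap4 (425 against 130 CPM, log2 1.71) and Cntnap5c (513 against 228 CPM, log2 1.17), these included relatives of Cntnap2, the member with the largest ratio there. Of the 46 genes of the list tested, 19 were higher and 18 lower, beside the same shares of all genes. In striatal over excitatory nuclei 17 were higher and 17 lower of 47, beside 35.0% and 28.0% of all genes, and the share higher was near the background. Among them were Scn4b, a sodium channel subunit (56.7 against 4.34 CPM), Epb41 (185 against 53.7 CPM), Nectin1 (7.34 against 30.2 CPM) and Cntnap4 (38.9 against 130 CPM).

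Over the 24 classes and subtypes, no member was among the 3 genes most like another member. The gene most like Nfasc was Usp20 (Pearson r = 0.93 of log2(CPM + 1) among 14231 genes), and the gene most like Ank3 was Jakmip3 (0.93). Cntnap2 was most like the imprinted noncoding RNAs Rian, Meg3 and Mirg (0.90, 0.90 and 0.89), and Cntn2 was most like Gm1992 and Xkr4 (both 0.86). For Epb41l3 it was 2410021H03Rik (0.91), the antisense gene that overlaps it, so that shared reads cannot be told apart from likeness. The most alike gene was Apba2 for Nrcam (0.88), Gm7854 for Cntnap1 (0.84), Slc26a8 for Ank2 (0.82) and 4930455C13Rik for Cntn1 (0.78). Among the members, the closest pairs were Ank2 with Nrcam (0.74), Cntnap2 with Epb41l3 (0.73) and Cntnap1 with Cntnap2 (0.69). These points share libraries, free RNA and, for subtypes, the nuclei of their class, and the values describe likeness only.

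**Figure D5:**
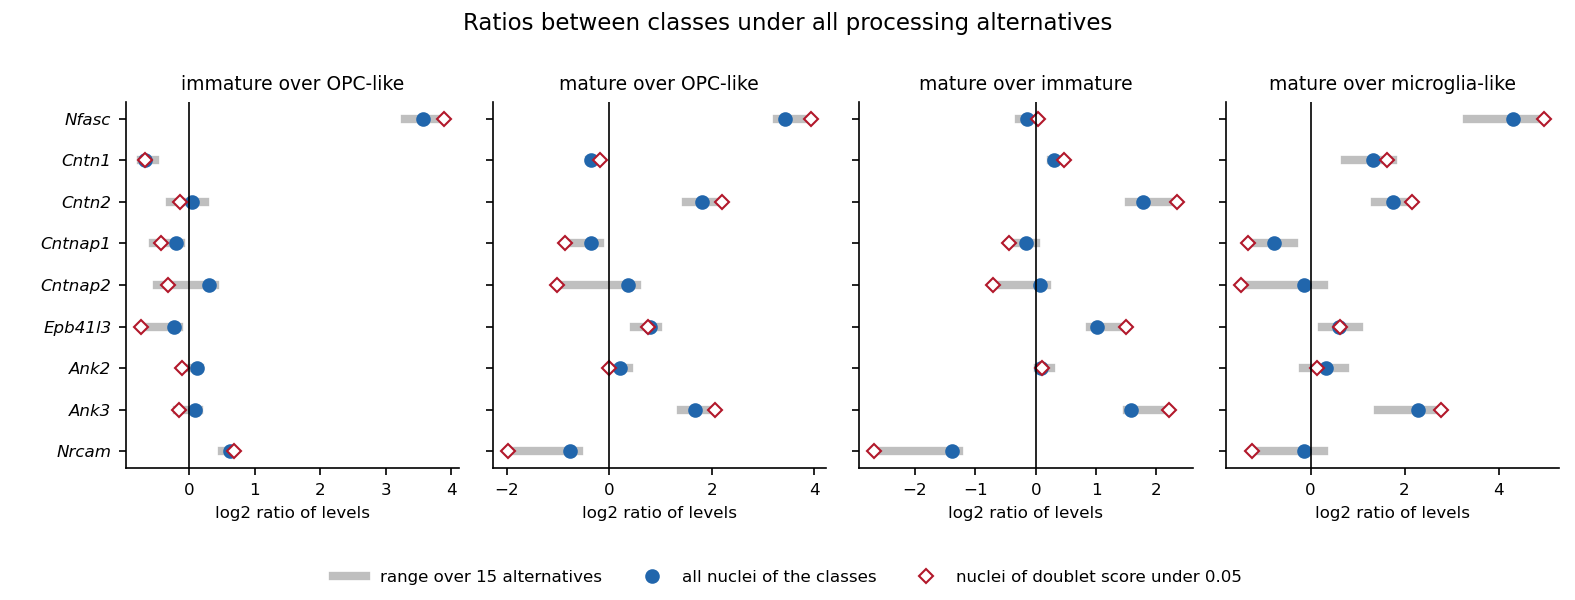
Blue dots give the pooled log2 ratio of each gene in 4 comparisons, grey bars its range over 15 processing alternatives and red diamonds its value in nuclei of doublet score under 0.05. Nfasc, Cntn2, Ank3 and Epb41l3 keep their sign in mature over OPC-like nuclei throughout, while Cntnap2 moves from 0.37 to -1.03.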

How the data were processed

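Per the file headers and the labels, the deposited values were raw UMI counts per gene and nucleus, made by the authors from single cell 3' version 2 libraries of the 10x system. The header names Cell Ranger 6.0.0 and the submitters' processing notes Cell Ranger 2.1.1 with the mm10 genome, whereas the study's methods name the STARsolo aligner, and which of these made the table was not settled. The methods also describe removal of empty droplets with EmptyDrops, of multiplets with DoubletFinder and of nuclei above a mitochondrial share of 10%. Whether these filters had been applied to the deposited table was not settled, and 11 barcodes at or above that share were in it. The 6 libraries were already joined, and 0 columns of per-sample values were left aside.

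Barcodes with a mitochondrial share of 10% or more were removed. Counts were scaled to 10000 per nucleus and clustered with scanpy 1.11.5 and leidenalg 0.10.2 (3000 variable genes without the 9 members, 30 principal components, 20 neighbours, resolution 1.0, seed 0). Of the members, only Nfasc and Cntnap2 would have been among the variable genes. Clusters were named from fixed marker lists, but the limits for naming were set after the clusters were seen. Doublets were scored per library with the scrublet method in scanpy and kept, except that 4 clusters with a median score of at least 0.1 (3776 nuclei, 4.98%) stayed unnamed. Raw counts were summed per class and library. Classes needed 20 nuclei per library, and the background was all genes of at least 5 CPM in either class. Counts per library and binomial intervals used scipy 1.17.1, and edgeR 4.0.16 gave TMM factors only. The comparison code was checked on simulated data.

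The members, gene lists and comparisons were chosen with earlier results of these data known. From the list of 49 related genes, up to 4 per comparison were named, those with the largest absolute log2 ratio among genes called in 6 of 6 libraries. The 3 genes most like each member were sought among genes of at least 10 CPM in a class or subtype. Gene positions are from GENCODE for GRCm38. Intervals cover counting error only, and libraries are not replicates of a group.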

Additional observations from a re-analysis of the deposited data

Results flagged for a closer look

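Of 81 groups of 6 library values, 3 held a library far from the other 5, and chance alone picks out about 1 in 20 such groups. For Ank2 in immature over OPC-like nuclei, library 5 had a log2 ratio of 0.032 where the others lay between 0.13 and 0.16. For Nfasc in mature over OPC-like nuclei, library 4, with 163 mature nuclei, had 2.70 where the others lay between 3.25 and 3.53. For Cntnap1 in mature over immature nuclei, library 6, with 99 mature nuclei, had -0.92 where the others lay between -0.23 and 0.03.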

How the results depend on the processing

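Each ratio of a member was computed again under 15 alternatives, of which 2 (clusters of high doublet score put back, and nuclei of doublet score under 0.05) were added after seeing the data. Of 1080 values for single genes, 999 kept their call or lack of one (an uncalled value could change sign, as Cntn2 did in immature over OPC-like nuclei), 40 gained a call, 18 lost one and 23 reversed. A reversed value changed sign but need not have been called on both sides. Cntnap2 in mature over OPC-like nuclei had no call over all nuclei. Ank2 and Ank3 in immature over OPC-like nuclei had none with scores under 0.05. Of 52 calls, 39 held under every alternative, among them all 17 of the neuronal comparisons and all 6 of mature over OPC-like nuclei. The settings that leave out 1 library could add a call but not remove one, because a call already had its sign in every library. That calls held there was therefore fixed in advance, and only the other alternatives could break a call. The causes of the changes below were not tested.

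For immature over OPC-like nuclei the 5 members higher became 2 at resolution 0.5, 3 at resolution 2.0, and 2 with the highest doublet scores removed, with mean shares per nucleus, with high-doublet clusters put back and with scores under 0.05. The 1 member lower became 4 at resolution 0.5, 2 with the highest doublet scores removed, 2 with mean shares, 5 with clusters put back and 3 with scores under 0.05. The Cntnap2 ratio reversed to -0.27 at resolution 0.5, -0.20 with the highest doublet scores removed, -0.0092 with mean shares, -0.49 with clusters put back and -0.32 with scores under 0.05. Ank2 reversed to -0.051, -0.11 and -0.10 at resolution 0.5, with clusters put back and with scores under 0.05, and to -0.0449 both at resolution 2.0 and with the highest scores removed. Ank3 reversed to -0.17, -0.10, -0.070, -0.19 and -0.16 under the same 5 settings as Cntnap2.

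With scores under 0.05, the members lower at the mature stage went from 2 to 4 against OPC-like nuclei and from 1 to 2 against immature nuclei, and Cntnap2 reversed to -1.03 and -0.71. Leaving out 1 library gave 1 to 2 members lower in mature than in immature nuclei (2 without library 3) and 0 to 1 lower than in microglia-like nuclei (1 without library 4).

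Against microglia-like nuclei, the members higher in OPC-like nuclei fell from 4 to 1 and those higher in immature nuclei from 5 to 3 at resolution 0.5. At that resolution the microglia-like class held 4516 nuclei in place of 2617. The 2 members lower in OPC-like nuclei became 4 at resolution 0.5, 1 with the members among the variable genes, and 0 both with TMM scaling and with clusters put back. The 1 lower in immature nuclei became 3 at resolution 0.5, 2 at resolution 2.0, 3 with the highest doublet scores removed, 0 with TMM scaling, 2 with mean shares and 2 with scores under 0.05. The 0 lower in mature nuclei became 4 at resolution 0.5, 1 at resolution 2.0, 2 with the highest doublet scores removed, 1 with mean shares and 3 with scores under 0.05. At resolution 0.5, Ank2 reversed to -0.14, -0.19 and -0.15 in OPC-like, immature and mature over microglia-like nuclei and Ank3 to -0.047 and -0.21 in the first 2, and Cntnap2 in OPC-like nuclei reversed to 0.29 with clusters put back. TMM scaling moved the median ratio of all genes by 0.17 in mature over OPC-like and 0.12 in mature over immature nuclei, and put 5 in place of 3 members highest in a neuronal class.

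No paired analysis was possible because the replicate numbers of the mice could not be matched to libraries. The classes themselves were compared within each library, which pairs them. Libraries 3, 4 and 6 held 157, 163 and 99 mature nuclei, which limits the precision for Cntn2 and Cntnap1 there. Sums per class cannot tell unspliced from spliced RNA or one splice form from another.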
